A study of Mus musculus with 2 samples.

Results

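Proliferating T cells of the mouse lung were described here in a library of T cells sorted for a Foxp3 reporter. Members were taken by their transcripts: cell barcodes with at least 200 detected genes, at most 10% mitochondrial UMIs, at least 1 UMI of the T cell receptor chains Cd3d, Cd3e and Cd3g, and at least 3 UMIs in sum of 5 cell cycle genes, Mki67, Top2a, Birc5, Cdk1 and Ccna2. A UMI (unique molecular identifier) stands for 1 captured RNA molecule. The rule found 124 members among the 8349 lung barcodes that passed the other filters, out of 8730 lung barcodes and 15331 in the whole series. They were set against the 7873 passing lung cells in which the 5 genes summed to 0, and the 352 cells with a sum of 1 or 2 entered neither set.

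The series holds 1 lung and 1 skin library of adult mice. Both tissues were digested with collagenase, and cells carrying GFP, CD4, CD3 and CD45 were sorted, per the labels. The lung cells came from Foxp3-GFP C57Bl/6 mice of what the labels call the Tachilla strain, and the skin cells from Foxp3-CreERT2GFP C57Bl/6 mice. The number of animals behind each library was not given in the labels used here. With 1 library per tissue there is no replicate, no test was run, and every printed interval is a 95% interval that covers counting error only.

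Regulatory T cells (Tregs) restrain other immune cells and depend on the transcription factor Foxp3. Resting T cells stay in G0 with small cytoplasm and little transcription. On entering the cycle they license replication origins in G1 and fire them in S phase, with the genes for this under E2F factors. They then switch on the mitotic genes whose promoters are bound by the DREAM and B-MYB complexes with NF-Y. Of the selecting genes, Mki67 encodes a coat protein of mitotic chromosomes, Top2a a topoisomerase that untangles DNA, Birc5 the chromosomal passenger survivin, Cdk1 the mitotic kinase and Ccna2 the cyclin of S phase and G2.

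The promoters of 2 abundant replication genes and 2 abundant mitotic genes that were higher in members are printed from RefSeq on GRCm38.p6, each from 250 bases before to 50 bases after the start, on the gene's strand. They are shown because replication and mitotic genes were the highest groups in the members. Capitals mark 3 letter strings that were searched on both strands: TTTGAA (the core of the cell cycle homology element), CCAAT (the NF-Y box) and GCGGGAA (one form of the E2F site). The printed replication genes are Pclaf at chr9:65890073-65890372 on the plus strand and Pcna at chr2:132253131-132253430 on the minus strand. The printed mitotic genes are Cenpa at chr5:30666636-30666935 on the plus strand and Ccnb2 at chr9:70421505-70421804 on the minus strand. Ccnb2 was chosen after its values were seen. It stands in place of Ran, the most abundant gene named from the mitotic lists, whose promoter held none of the 3 strings.
Pclaf: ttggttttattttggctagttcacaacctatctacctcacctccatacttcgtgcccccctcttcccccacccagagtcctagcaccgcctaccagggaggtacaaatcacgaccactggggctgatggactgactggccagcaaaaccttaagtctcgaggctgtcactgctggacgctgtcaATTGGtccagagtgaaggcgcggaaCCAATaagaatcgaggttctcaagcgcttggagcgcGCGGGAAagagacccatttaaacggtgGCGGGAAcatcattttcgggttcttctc
Pcna: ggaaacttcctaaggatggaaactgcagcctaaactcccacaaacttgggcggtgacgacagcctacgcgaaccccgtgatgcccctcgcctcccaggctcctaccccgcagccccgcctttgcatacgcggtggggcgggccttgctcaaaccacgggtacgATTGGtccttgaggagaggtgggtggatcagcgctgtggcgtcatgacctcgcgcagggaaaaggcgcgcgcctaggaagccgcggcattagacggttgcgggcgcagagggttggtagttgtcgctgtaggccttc
Cenpa: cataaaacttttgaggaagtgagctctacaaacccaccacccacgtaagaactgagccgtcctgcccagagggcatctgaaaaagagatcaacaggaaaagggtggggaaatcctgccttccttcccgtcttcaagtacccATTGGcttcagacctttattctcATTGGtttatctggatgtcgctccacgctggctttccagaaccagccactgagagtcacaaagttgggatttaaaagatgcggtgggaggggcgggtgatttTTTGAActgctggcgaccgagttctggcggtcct
Ccnb2: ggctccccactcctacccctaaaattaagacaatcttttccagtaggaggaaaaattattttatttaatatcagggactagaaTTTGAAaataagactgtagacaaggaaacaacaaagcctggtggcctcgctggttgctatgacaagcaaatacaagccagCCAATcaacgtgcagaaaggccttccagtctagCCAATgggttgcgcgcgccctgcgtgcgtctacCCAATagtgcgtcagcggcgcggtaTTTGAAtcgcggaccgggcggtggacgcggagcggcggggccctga

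In these windows Pclaf held 2 CCAAT and 2 GCGGGAA strings, Pcna 1 CCAAT, Cenpa 2 CCAAT and 1 TTTGAA, and Ccnb2 3 CCAAT and 2 TTTGAA. Among all 27025 promoters of the table, 37.9% held CCAAT, 18.1% TTTGAA and 4.66% GCGGGAA. Among the 13 matched promoters of the 17 replication genes at least 2-fold higher in members, the shares were 76.9%, 23.1% and 30.8%. Among the 18 matched promoters of the 20 mitotic genes they were 66.7%, 44.4% and 0%. The genes tested at all, with 1917 matched promoters of 2406, had 39.7%, 13.1% and 8.56%. A match is a string of letters in a window and not a measured site.

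Members held far more UMIs than the other cells. Their UMIs per cell ran from 3227 over a median of 8257.5 to 25805, against a median of 2345 in comparison cells (500 to 30526), and their median number of genes was 2414.5 against 898. A share of 83.9% of members, 104 of 124, lay above the 95th percentile of UMIs in passing lung cells. The share of members followed depth: they were 1.49% of all passing cells (1.24 to 1.77), 10.2% of the 1171 cells with at least 4000 UMIs and 41.5% of the 159 with at least 8000. When cells were thinned at random to 2000 UMIs before the rule was applied, 37 of 5769 met it (0.641%, 0.452 to 0.883). A cycling cell of few UMIs can thus miss the rule, and more RNA per cell raises the chance of meeting it. No doublet caller was run, so 2 T cells in 1 droplet are not separated from a large T cell.

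**Figure D1:**
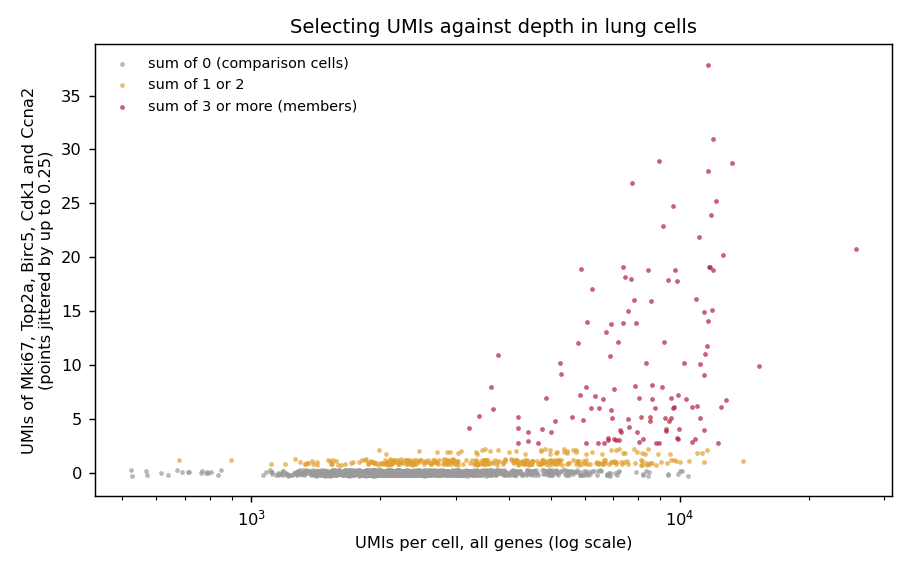
UMIs of the 5 selecting genes (vertical, points jittered) against all UMIs of a cell on a log scale (horizontal), for all 124 members, the 352 cells with a sum of 1 or 2 and a random 1500 of the 7873 comparison cells. Members lie between 3227 and 25805 UMIs, at the deep end of the library.

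The selecting values themselves are a description. Birc5 had a UMI in 118 members (547 UMIs in all), Top2a in 75 (280), Ccna2 in 70 (177), Mki67 in 66 (122) and Cdk1 in 53 (123). The sum had a median of 7 and ran from 3 to 38. Just inside the threshold, 20 cells had a sum of 3, with a median of 7159 UMIs per cell, and just outside it 49 cells had a sum of 2, with a median of 5380.

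The T cell identity of the members was checked against markers of this and other cell types. All 124 held at least 2 UMIs of the T cell receptor constant genes Trac, Trbc1 and Trbc2, and 79 held a Cd4 UMI. At least 3 UMIs of 8 Treg markers were seen in 118 members (95.2%) and in 77.8% of the shallower comparison cells. Foxp3 itself was sparse everywhere: 8 members (6.45%) and 278 comparison cells (3.53%) held a UMI. After thinning to 2000 UMIs it stood at 2.42% of members (0.502 to 6.91), 2.23% of comparison cells and 1.14% of 88 lung cells with markers of epithelium, endothelium, stroma or myeloid cells and no Cd3 UMI. Their median depths before thinning were 8257.5, 2716 and 3300.5 UMIs. The Foxp3 share was therefore close to background in all of them. Of the other Treg markers at 2000 UMIs, Ctla4 was seen in 50% of members, 38.6% of comparison cells and 4.55% of the 88 cells without Cd3. Ikzf2 was seen in 41.1%, 52.6% and 1.14%, and Lrrc32 in 11.3%, 25.9% and 9.09%. The Lrrc32 share of members was thus near that of the 88 cells, whose own expression of it was not tested. Il2ra, Tnfrsf18, Izumo1r and Gpr83 were also seen in a smaller share of members than of comparison cells. Against the CD4 gate, 3 members held 2 or more UMIs of Cd8a and Cd8b1, 1 of them 22, and 3 held 2 or more of Trdc, the gamma-delta receptor constant gene, up to 12. Markers of other lineages lay on both sides. Higher in members was the B cell list, at 1105 against 513 CPM (counts scaled to the same total in each set). So were the plasma cell list, at 1423 against 112 CPM, and the CD8 list, at 44.4 against 22.8 CPM. The gamma-delta list was at 32.3 against 26.2 CPM, which in members was all Trdc and came from 4 thinned cells. Most of the B cell sum was Ighm, at 996 against 425 CPM. Cd79b, a chain of the B cell receptor, had 47 UMIs in all members before thinning, and Ms4a1 and Pax5 of the 9 B cell markers had none. Lower in members were other lists: the alveolar epithelial list summed to 161 against 1700 CPM and club and ciliated cells to 133 against 554 CPM. Macrophages and monocytes summed to 36.3 against 267 CPM, and the list of 8 Treg markers to 1395 against 2195 CPM. Sftpc, the surfactant protein gene of alveolar cells, was at 121 against 1381 CPM, but at 124 against 142 CPM beside T cells of like depth from which cells rich in such markers were left out. None of the NK cell markers had a UMI in the thinned members, and C1qa, Csf1r and Marco of macrophages and Col3a1 and Dcn of fibroblasts were at 0.

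1 member stood apart. It held 954 UMIs of Igha, 355 of Jchain and 2264 of Igkc, the antibody genes of an IgA plasma cell, with 36 of Mzb1, 61 of Cd74 and the highest total of all members, 25805 UMIs. It held only 3, 1 and 1 UMIs of Cd3d, Cd3e and Cd3g. A second member held 11 Igha UMIs and no Jchain. Leaving both out gives 122 members. In the pooled members Igha was at 274 CPM, Jchain at 141 and Igkc at 831, against 4.79, 1.93 and 34.8 CPM in comparison cells. Without cells holding 5 or more UMIs of Igha and Jchain, the log2 differences went from 3.57 to -0.06 for Igha, from 2.88 to -0.03 for Jchain and from 3.96 to 0.57 for Igkc.

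For the comparison across genes, the 5 selecting genes were removed and each cell was thinned to 2000 UMIs, which kept all 124 members and 5429 comparison cells. UMIs were then summed per set and written as CPM, and 1 UMI in the members is 4.03 CPM. Differences are log2 of (CPM + 20) over (CPM + 20), and genes averaging at least 50 CPM over both sets were counted. On this scale 287 of 2406 genes (11.9%) were at least 2-fold higher in members and 84 (3.49%) at least 2-fold lower, with a median over all genes of 0.30. Without the cells rich in Igha and Jchain the counts were 285 (12.0%) and 86 (3.63%) of 2366 genes. Members were chosen by cell cycle transcripts of these same cells, so all of these counts are a description of the members and not a test. Ribosomal protein genes took 27.0% of member UMIs and 40.2% of comparison UMIs, which lifts the CPM of all other genes. Scaled to totals without mitochondrial and ribosomal protein genes, the median moved by -0.28 and the counts were 255 higher and 250 lower. Median-of-ratios scaling gave 173 and 171.

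Because comparison cells were shallower even before thinning, each member was also set beside the 1 T cell with a sum of 0 that was nearest to it in total UMIs, without thinning. This comparison was added after the data were seen, and its limit on markers of other cells was set after a first version without it. It left out plasma cell transcripts and cells with 20 or more UMIs of epithelial, endothelial, stromal or myeloid markers, and it paired 122 members (median 8163.5 UMIs) with 122 cells (median 7333.5 UMIs). Of 2451 genes, 135 (5.51%) were at least 2-fold higher in members and 28 (1.14%) lower, with a median of 0.12. These are called the depth-matched cells below. Ribosomal protein genes took 27.4% of member UMIs and 35.0% of theirs.

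**Figure D2:**
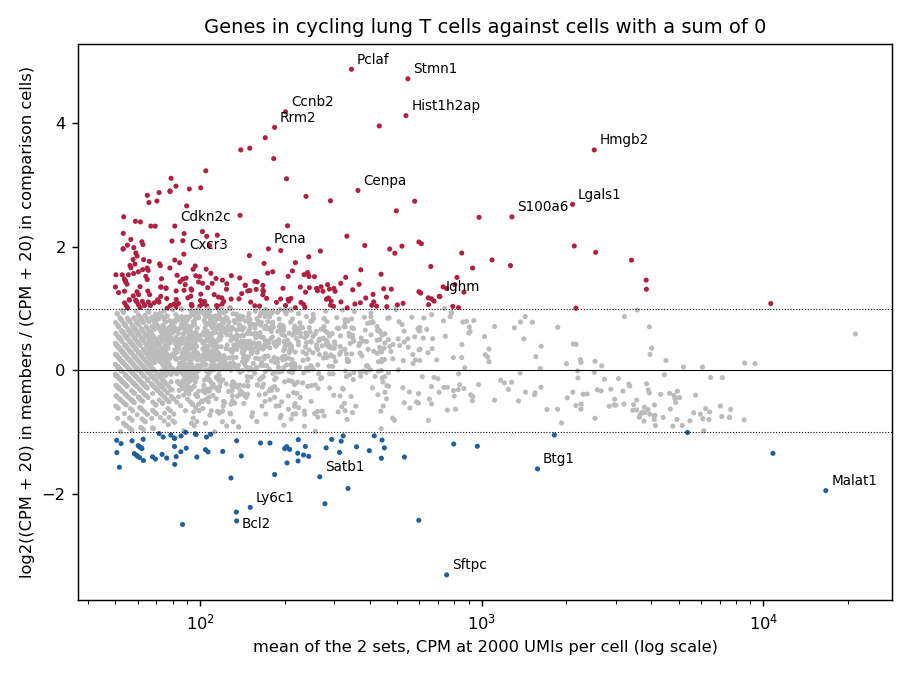
Log2 difference between members and comparison cells at 2000 UMIs per cell (vertical) against mean CPM on a log scale (horizontal), 1 point per gene, with genes at least 2-fold higher in red and at least 2-fold lower in blue. Pclaf (4.87) and Stmn1 (4.72) are highest and Sftpc (-3.31) lowest.

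Genes of DNA replication were high in members. Counted over every listed gene but the selecting ones, the 22 genes of origin licensing and firing summed to 1520 CPM in members and 232 CPM in comparison cells, and the 32 genes of the replication fork to 2952 against 526 CPM. Only some passed the floor of 50 CPM, and a rare gene can pass it solely through the set in which it is high, so the counts of measured genes below are descriptions. All 7 measured genes of origin licensing and firing and 10 of 11 genes of the replication fork were at least 2-fold higher, with list medians of 2.02 and 1.78, against 7 of 7 and 9 of 11 beside the depth-matched cells. Pclaf, the PCNA clamp-associated factor, stood at 685 CPM (586 to 797) in members and 4.05 CPM (2.94 to 5.44) in comparison cells, and 69.4% against 0.70% of thinned cells held a UMI. None of the 88 lung cells without Cd3 did, which allows up to 3.41%. With depth matched it was at 684 against 21.2 CPM, with a UMI in 111 of 122 members and 8 of 122 of the others. Pcna, the sliding clamp itself, was less selective, at 290.3 against 59.4 CPM and in 36.3% against 11.2% of cells, where the 88 cells without Cd3 gave 10.2%. The helicase subunit Mcm5 was at 169 against 9.95 CPM, Mcm7 at 181 against 22.5 CPM, and geminin (Gmnn), which blocks relicensing, at 113 against 11.4 CPM. The DNA ligase Lig1 stood at 194 against 7.55 CPM. So the replication machinery was high as a group, from loading to ligation.

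The supply side of S phase moved less evenly. Of 14 genes of nucleotide synthesis 7 were at least 2-fold higher, led by the ribonucleotide reductase subunit Rrm2 at 363 against 5.07 CPM, the dUTPase Dut at 431 against 44.1 CPM and thymidine kinase Tk1 at 105 against 2.30 CPM. Of 24 genes of chromatin assembly and DNA methylation 17 were higher. Hmgb2, a DNA-bending protein, had the most UMIs of the 15 highest genes, at 4645 CPM (373 in comparison cells). Every thinned member held an Hmgb2 UMI, with a median of 9 and a highest of 21, but so did 47.5% of comparison cells and 18.2% of the 88 cells without Cd3, so Hmgb2 alone did not separate the sets. The histone chaperone Asf1b was at 161 against 2.95 CPM. The replication-dependent histone gene Hist1h2ap was at 1036 against 40.6 CPM, while the linker histone Hist1h1e was at 117 against 70.3. Capture by poly(A) tails reads such histone messages poorly, and genes of this family share sequence, so their split is uncertain.

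Mitotic genes formed a second high group. Leaving out the selecting genes, the list of 20 genes of G2 and mitotic entry summed to 2270 against 429 CPM. The 29 of the kinetochore and centromere summed to 1851 against 221 CPM and the 33 spindle motors and regulators to 2484 against 299. The 22 of the spindle checkpoint and anaphase promoting complex summed to 2698 against 609 CPM. A rare gene could again pass the floor solely through the members, so the counts of measured genes are descriptions. At least 2-fold higher were 5 of 6 measured genes of G2 and mitotic entry (median 3.13), 3 of 3 of the kinetochore and centromere (2.72), 8 of 11 of the spindle checkpoint and anaphase promoting complex (1.90) and 4 of 4 spindle motors and regulators (2.67). The depth-matched cells gave 5 of 6, 3 of 4, 8 of 11 and 4 of 4. Cyclin B2 (Ccnb2) stood at 399 CPM (3.04 in comparison cells) and cyclin B1 (Ccnb1) at 129 (0.92). The centromeric histone Cenpa stood at 657 against 70.0 CPM. Cdc20, the activator of the anaphase promoting complex, was at 153 against 3.32 CPM, and its ubiquitin-conjugating enzyme Ube2c at 294 against 5.99. Nusap1, a spindle protein, had 39 UMIs in the members and 6 in the 5429 comparison cells.

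Of 8 measured genes of tubulins and the microtubule destabiliser stathmin (Stmn1), 6 were at least 2-fold higher, 1 was lower and 1 was within 2-fold. Stmn1 stood at 1073 CPM (948 to 1210) against 21.5 CPM, and Tuba1b at 1020 against 136 CPM. Tubb2a went the other way, at 48.4 against 209 CPM, and it was also lower beside the depth-matched cells, at 39.4 against 102 CPM. The nuclear lamina gene Lmnb1 stood at 379 against 26.5 CPM and lamina-associated Tmpo at 355 against 54.1. Of 26 genes of DNA repair and the damage response only 3 were measured and none of them reached 2-fold, with Trp53 at 101 against 118 CPM. Over all 26 the sum was 823 against 456 CPM, 1.80-fold higher in members.

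Genes of G1 control lay on both sides. None of 3 measured G1 cyclin and kinase genes reached 2-fold on the scale with 20 CPM added: Cdk4 was at 133 against 58.8 CPM (log2 difference 0.96 on that scale, 2.26-fold as a plain ratio), Ccnd3 at 165 against 94.6 and Ccnd2 at 109 against 209. Among inhibitors of these kinases, Cdkn2c (p18) stood at 149 CPM (13.5 in comparison cells) and Cdkn1b (p27) at 64.5 (125). With depth matched, Cdkn2c stood at 104 against 16.7 CPM and Cdkn2d (p19) at 165 against 66.9 CPM. Cdkn2c inhibits CDK4 and CDK6. Its log2 difference of 2.33 turned to -0.67 without cells above the 95th percentile of UMIs. That setting left 20 members, so this value rests on very few UMIs.

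**Figure D3:**
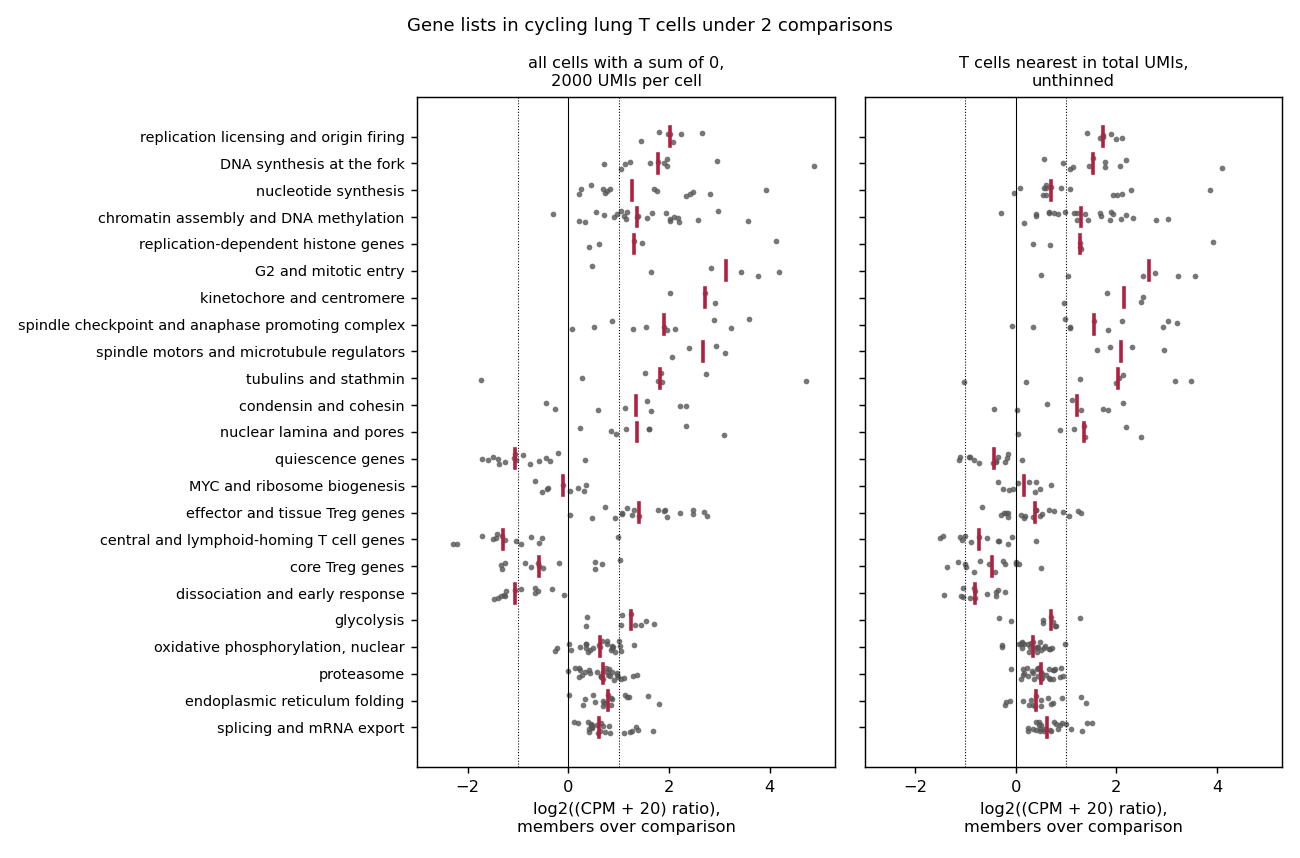
Log2 difference of each measured gene (grey points) in 23 lists, against all comparison cells at 2000 UMIs (left) and against the depth-matched T cells (right), with list medians in red and dotted lines at 2-fold. Replication and mitotic lists have medians above 0.70 on both sides, where the selection by cell cycle genes puts them, and the effector and tissue Treg list has a median of 1.41 on the left and 0.37 on the right.

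Genes of quiescence were lower. Of 16 measured, 9 were at least 2-fold lower and 0 higher, with a median of -1.06, and beside the depth-matched cells 2 of 14 were lower (median -0.42). Over all genes the shares lower were 3.49% and 1.14%. The antiproliferative gene Btg1 stood at 774 against 2382 CPM, and at 673 against 1484 beside the depth-matched cells. Bcl2, which guards resting lymphocytes from apoptosis, was at 32.3 CPM (8 UMIs) against 237 CPM, and 6.45% against 32.9% of cells held a UMI. The share in members was near the 6.82% of the 88 cells without Cd3, whose own expression of Bcl2 was not tested. Against depth-matched cells Bcl2 was at 46.2 and 119 CPM, a ratio 2.58-fold lower (1.82 to 3.72). The genome organiser Satb1 was at 113 against 419 CPM, and at 117 against 276 CPM with depth matched. Malat1, a nuclear long noncoding RNA, took 6843 CPM of members and 26480 CPM of comparison cells. It was at 6882 against 18226 CPM beside the depth-matched cells.

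Effector and tissue Treg genes were high in members, but much of that difference was shared with other deep cells. At 2000 UMIs per cell 15 of 19 measured genes were at least 2-fold higher (median 1.41, 0 lower). Lgals1, a galectin, was at 3653 against 551 CPM, the calcium-binding S100a6 at 2185 against 374, vimentin (Vim) at 1673 against 284 and the annexin Anxa2 at 520 against 60.6 CPM. Cxcr3, the chemokine receptor of type 1 responses, was at 149 against 26.0 CPM, with a UMI in 21.8% against 3.90% of cells (2.27% of the 88 cells without Cd3). Its lineage factor Tbx21 had no UMI in the thinned members, which allows up to 12.1 CPM. Of 20 effector genes 3 stayed at least 2-fold higher beside the depth-matched cells, Lgals1, Lgals3 and Anxa2, with a list median of 0.37. Over all genes in that comparison 5.51% were at least 2-fold higher, with a median of 0.12. There S100a6 stood at 2115 against 1457 CPM, Cxcr3 at 138 against 102 CPM and S100a4 at 593 against 551 CPM. At 2-fold, most calls for this list were therefore not found with depth matched. The replication and mitotic lists are no yardstick for it, since the selecting sum separated the sets by cell cycle genes in both comparisons.

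Central and lymphoid-homing T cell genes were lower, in 9 of 14 measured (median -1.29, 0 higher). The lymph node receptor Ccr7 was at 230 against 651 CPM, in 29.0% against 53.1% of cells (7.95% of the 88 cells without Cd3). Ly6c1 was at 40.3 against 261 CPM. Beside the depth-matched cells 4 of 13 were at least 2-fold lower, Satb1, Ly6c1, Igfbp4 and Bcl2, and Ccr7 was at 199 against 386 CPM. Satb1 and Bcl2 were also named above with the quiescence genes, so these accounts overlap. Over all genes 3.49% were at least 2-fold lower, and 1.14% beside the depth-matched cells. Some members still held these transcripts. At 3000 UMIs per cell, 42 of 124 held a Ccr7 UMI and 72 an S100a4 UMI, 20 held both and 30 neither. A UMI of Cxcr3 was seen in 33, of which 20 also held S100a4 and 12 Ccr7.

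Core Treg genes were somewhat lower. Of 13 measured, Tnfrsf4 (OX40), Lrrc32 (GARP, which docks latent TGF-beta) and Izumo1r (folate receptor 4) were at least 2-fold lower, Capg was higher, and the median was -0.58. Izumo1r stood at 258 against 644 CPM and Tnfrsf4 at 169 against 456 CPM. Ctla4, an inhibitory receptor, was at 415 against 283 CPM and Ikzf2 (Helios) at 355 against 540 CPM. Beside the depth-matched cells Izumo1r, at 252 against 585 CPM, and Lag3, at 22.6 against 90.4 CPM, were at least 2-fold lower. For Lag3 the numbers of cells with a UMI lay closer, at 16 of 122 members (23 UMIs) and 21 of the 122 depth-matched cells (81 UMIs). Lrrc32 was there at 53.1 against 126 CPM, just short of 2-fold on the scale with 20 CPM added.

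A subset of the comparison cells was also taken after the data were seen: the 408 with 2 or more UMIs of S100a4, a marker of effector cells, after thinning. They were far shallower than members, with a median of 3513 against 8257.5 UMIs before thinning. Against them 137 of 2566 genes (5.34%) were at least 2-fold higher in members and 69 (2.69%) lower. The licensing list was higher in 7 of 7 and the kinetochore list in 3 of 3, where the selecting sum again separated the sets. The effector list had a median of -0.18, with 2 of 21 higher and 4 lower, which the choice by S100a4 bears on directly. The central list had a median of -0.10. Core Treg genes had a median of -0.72, and Tnfrsf4 stood at 169 against 525 CPM. Bcl2 was at 32.3 against 50.3 CPM there, and Malat1 at 6843 against 25306 CPM. Malat1 was thus lower in members than in all comparison cells, in this subset of them and in the depth-matched cells. Bcl2 was within 2-fold of the 408 cells, but at 46.2 against 119 CPM beside the depth-matched cells.

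**Figure D4:**
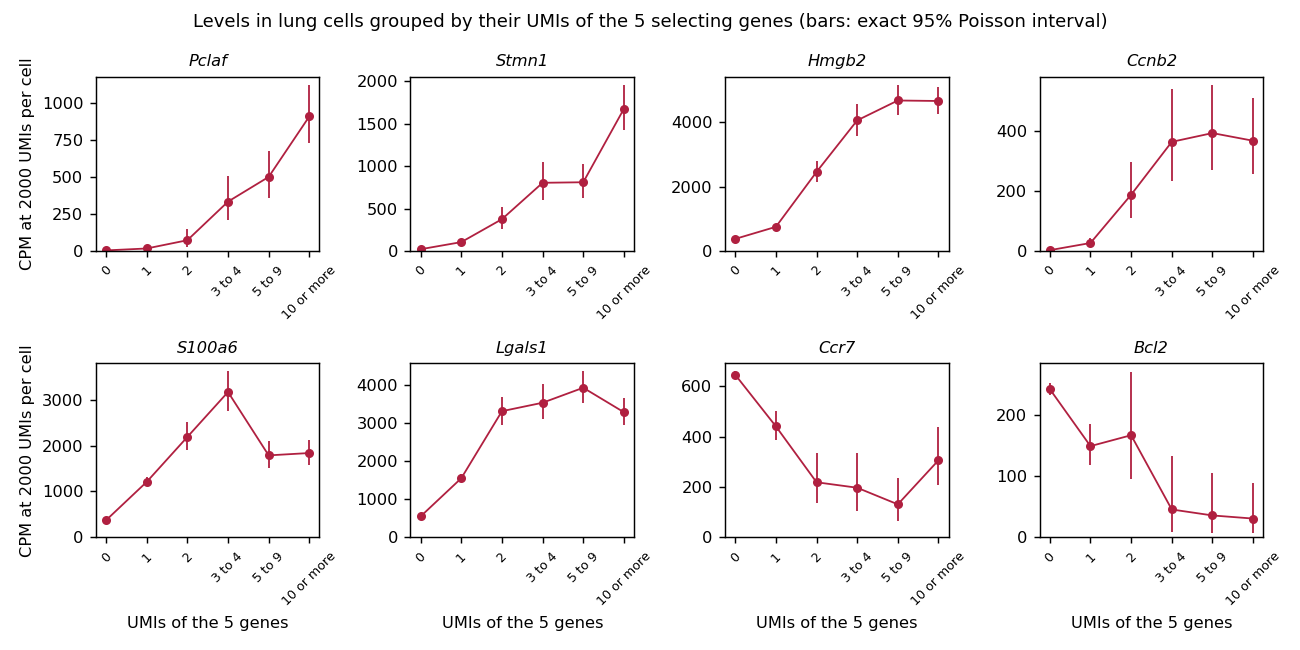
Levels of 8 genes in CPM at 2000 UMIs per cell (vertical, linear from 0) in lung cells grouped by their UMIs of the 5 selecting genes (horizontal), with exact 95% Poisson intervals. Cell numbers are 5429, 262, 48, 33, 42 and 49 from left to right, and Lgals1 is already at 3323 CPM in cells with a sum of 2.

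Levels in cells grouped by the selecting sum were drawn from a separate random thinning. Pclaf was at 4.24, 17.2, 72.9, 333, 500.0 and 908 CPM in cells with a sum of 0, 1, 2, 3 to 4, 5 to 9 and 10 or more. The effector list summed to 5329, 11893, 19531, 24136, 21393 and 20541 CPM in the same groups. It rose from 19531 CPM (18657 to 20436) at a sum of 2 to 24136 CPM (22966 to 25351) at 3 to 4 and was lower again in the 2 highest groups, whereas Pclaf was higher in each group than in the one before. Bcl2 was at 242, 149, 167, 45.5, 35.7 and 30.6 CPM, on 3 UMIs in each of the 3 highest groups. Sum and depth go together here, so these orders are a description of both.

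Metabolic genes differed by pathway. Of 9 measured glycolysis genes 7 were at least 2-fold higher (median 1.25), with Gapdh at 1944 against 586 CPM and Pgk1 at 359 against 110 CPM. Only Tpi1 of these stayed at least 2-fold higher beside the depth-matched cells, at 186 against 64.7 CPM, and the list median there was 0.70. Nuclear genes of oxidative phosphorylation had a median of 0.62 with 4 of 25 higher, and the proteasome 0.70 with 4 of 29, shares near the 11.9% of all genes at least 2-fold higher. Both counts were 0 with depth matched, with medians of 0.34 and 0.51. Of 17 genes of protein folding in the endoplasmic reticulum 5 were higher, and Hsp90b1 was at 270.2 against 77.6 CPM. The depth-matched comparison, which leaves out the member rich in Igha, gave 2 of 17. Genes of MYC and ribosome biogenesis did not reach 2-fold in any of 9, with a median of -0.10, which was 0.16 beside the depth-matched cells and -0.46 when ribosomal protein genes were left out of the totals. Npm1 stood at 786 against 1042 CPM.

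Early response genes, which tissue digestion can switch on, were lower in members. Of 13 measured 7 were at least 2-fold lower (median -1.06), and 4 of 13 beside the depth-matched cells. Over all genes these shares were 3.49% and 1.14%. The phosphatase gene Dusp1 stood at 282 against 781 CPM and the heat shock gene Hspa1a, which has a near-identical copy, at 109 against 337 CPM. Interferon-stimulated genes did not reach 2-fold in any of 10. Their median was 0.29, and it was below 0 beside the depth-matched cells (-0.38) and without ribosomal protein genes in the totals (-0.16).

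Members differed among themselves in which side of the cycle they showed. Each was thinned to 3000 UMIs and its UMIs of 59 replication genes and of 37 mitotic genes were counted. The mitotic genes were narrowed after values were seen. Replication UMIs were more in 55 members, mitotic UMIs in 63, and 6 were equal, with 24 within 2 UMIs of equal. At least 5 UMIs of both groups were seen in 79 members, and in 8 members both groups had fewer than 5. In the 55, Mcm5 stood at 273 CPM and Cdc20 at 42.4 CPM. In the 63, Mcm5 stood at 52.9 CPM and Cdc20 at 312 CPM. These genes are among those counted, so their split describes the grouping.

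**Figure D5:**
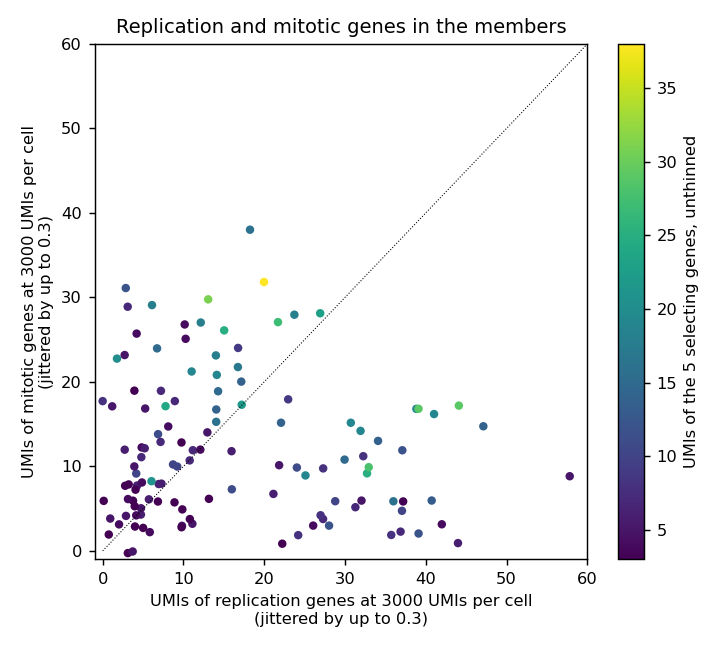
UMIs of 37 mitotic genes (vertical) against UMIs of 59 replication genes (horizontal) in each of the 124 members at 3000 UMIs per cell, jittered, with the colour giving the sum of the 5 selecting genes. 55 members lie below the dotted line of equality and 63 above it, with 24 within 2 UMIs of it.

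Genes outside that count differed to varying degrees between these groups. Hist1h2ap was at 1618 CPM in the 55 cells and 836 CPM in the 63, and Tuba1b at 1248 and 762 CPM. Cdkn2c was at 115 and 52.9 CPM, on only 19 and 10 UMIs. S100a6 was at 2339 CPM in the 55 cells and 2074 CPM in the 63. Cxcr3 was at 139 and 159 CPM (23 and 30 UMIs), and Ccr7 at 139 and 196 CPM (23 and 37 UMIs). Among the selecting genes, Top2a was at 388 and 169 CPM and Birc5 at 412 and 646 CPM. The median depths were 8929 and 7604 UMIs. Lgals1 was at 3952 and 3392 CPM.

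The same rule found 104 of 6400 passing skin cells (1.63%, 1.33 to 1.97). Strain, library and annotation differ together with tissue, and a difference between the 2 tissues was not tested. Skin members had a median of 5349 UMIs against 2022 in skin comparison cells. Thinning to 2000 UMIs kept 98 of the 104 members and 2912 skin comparison cells. In skin members 127 of 2893 genes (4.39%) exceeded their comparison cells by 2-fold or more, and 42 (1.45%) fell short by as much. Stmn1 stood at 1811 against 57.5 CPM there. Markers of other cell types also differed in skin: the macrophage and monocyte list summed to 500 against 111 CPM, with 2 of 2 measured genes at least 2-fold higher, the dendritic cell list to 444 against 205 CPM, and the fibroblast and smooth muscle list to 153 against 1183 CPM. Their part in the skin result was not tested. The effector list, at least 2-fold higher in 15 of 19 genes in lung, was higher in 0 of 30 in skin and lower in 1, with a median of -0.31. In lung the depth-matched count was 3 of 20, and no depth-matched comparison was made in skin. Skin comparison cells already held S100a6 at 3120 CPM and Lgals1 at 4463 CPM, against 374 and 551 CPM in lung comparison cells. Lung and skin libraries shared 82 barcodes, and none of them was a member.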

How the data were processed

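Values are the UMI counts the authors deposited for each gene and barcode, not normalized. The chemistry was 10x 3' v2, per the labels. Cell Ranger and mm10 are named in the submitters' processing notes, and the lung file header names software version 3.0.2. The lung library held 24293511 UMIs. A second lung table of 8626 of the same barcodes served as an alternative.

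Cells were selected, thinned and summed with Python 3.11.15, numpy 2.4.6 and scipy 1.17.1, and the steps were tested on simulated data. Poisson intervals for levels, binomial intervals for ratios and Clopper-Pearson intervals for shares cover counting error only. With 1 sample per tissue no test was possible. A count of 0 was read against 3 counts, 12.1 CPM in the thinned members. Thinning left out 2444 comparison cells. Members, the 53 gene lists and the thresholds were chosen with earlier results of these data known. Named genes were the 15 highest and 15 lowest, up to 4 per list with the widest difference, the selecting genes, Cd3d, Cd3e, Cd3g, Cd4, Foxp3, Igha and Jchain. Receptor and immunoglobulin segments, mitochondrial, ribosomal protein, haemoglobin, Gm and Rik genes were left out of the first group, and other genes were named after their values were seen. Alternatives changed the rule, depth, scaling, pseudocount, floor and comparison cells.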

Additional observations from a re-analysis of the deposited data

How the results depend on the processing

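The share of members was 2.07% with a sum of 2 or more, 1.09% with 5 or more, and 0.228% and 0.641% with cells thinned first to 1000 and 2000 UMIs. It stayed within its counting interval under the other 5 alternatives. The 287 higher genes became 160 against the 5 cells nearest in UMIs per member (median 5555.5 UMIs), 135 against the depth-matched cells, 173 with median-of-ratios scaling, 169 with a floor of 100 CPM and 582 without cells above the 95th percentile of UMIs, which left 20 members. The 84 lower genes became 28 against the depth-matched cells, 54 with a sum of 2 or more, 50 with a pseudocount of 50 CPM, 48 and 131 with floors of 100 and 20 CPM, 250 with totals without mitochondrial and ribosomal protein genes and 171 with median-of-ratios scaling. Of 107 named genes past 2-fold, 53 were past it the same way under all 20 alternatives and 9 changed sign in at least 1. Beside the depth-matched cells Lyz2 was at 0.26 and Sftpa1 at 0.25 (log2), where cells with macrophage or epithelial markers were left out by construction. Without cells above the 95th percentile, with 20 members, Cdkn2c was at -0.67, H2afx at -0.12, Idh3a at -0.25, Dnajb11 at -0.50, Igkc at -0.30, Igha at -0.33 and Jchain at -0.16. Without plasma cell transcripts Igha was at -0.057 and Jchain at -0.026, and at -0.074 and -0.0397 when cells with 2 or more Cd8 or Trdc UMIs were left out too, an alternative added after the data were seen. Beyond the depth and plasma cell alternatives, the cause of these moves was not tested. With all 124 members each member UMI at 2000 UMIs per cell is 4.03 CPM, so genes near 50 CPM rest on few UMIs. With 20 members 1 UMI weighs more in CPM, so the sign changes there rest on fewer still. No paired analysis was possible because each tissue has 1 library.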

Other observations

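Ighm, the constant gene of the IgM heavy chain, had a UMI in 118 of 124 members and in 3730 of 7873 comparison cells. At 2000 UMIs per cell it stood at 996 against 425 CPM, and 77.4% against 44.0% of cells held a UMI, with 10.2% of the 88 lung cells without Cd3. It was at 1033 against 857 CPM beside the depth-matched cells, and in the 408 cells with 2 or more S100a4 UMIs at 1141 CPM. The B cell list that holds Ighm summed to 1105 against 513 CPM. Of its other genes, Cd79b had 47 UMIs in all members before thinning, 8 of them in the member rich in Igha, and Ms4a1 and Pax5 had none. The source of these UMIs was not tested.

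Several genes outside the lists were also at least 2-fold apart beside the depth-matched cells, and are named here after their values were seen. Lockd, a noncoding RNA next to Cdkn1b, stood at 255 against 43.5 CPM and Cdca3, a mitotic regulator, at 185 against 8.92 CPM. The serine synthesis enzyme Phgdh was at 199.7 against 68.1 CPM and the fatty acid binding protein Fabp5 at 88.5 against 24.5 CPM. Lower were the MAX partners Mxd4, at 31.5 against 112 CPM, and Mxd1, at 43.3 against 108 CPM, and the surface protein Cd83, at 23.6 against 85.9 CPM.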
